A study of Homo sapiens with 4 samples.

Results

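The CEACAM genes encode adhesion receptors of the immunoglobulin family, and 6 of them, CEACAM1, CEACAM3, CEACAM4, CEACAM5, CEACAM6 and CEACAM8, were examined for open chromatin in HL-60 cells with and without all-trans retinoic acid (ATRA). HL-60 is a human promyelocytic leukemia cell line that matures toward granulocytes under ATRA. ATAC-seq, which marks open chromatin by where the Tn5 transposase inserts adapters, gave 1 peak list per library. The ATRA group was HL-60 cells kept in 1 µM ATRA for 4 days, and the control group was HL-60 cells kept in the same volume of the ethanol that carried the drug, with 2 replicates in each group. All libraries came from this single unedited line, which limits the comparison to that line. Each gene body was extended by 50 kb on either side, and the extended genes merged into 2 windows on chromosome 19 of hg19. The first window, chr19:42075388-42365592, is 290.2 kb long and holds CEACAM4, CEACAM5, CEACAM6 and CEACAM3 in this order. The second window, chr19:42961456-43149207, is 187.8 kb long and holds CEACAM1 and CEACAM8. Peaks of the 4 lists that shared at least 1 bp were merged into regions. The windows held 68 peaks in 35 regions, of 78063 regions in the genome.

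CEACAM proteins sit on the surface of granulocytes and epithelial cells, bind each other between cells and are receptors for several bacteria. CEACAM1 carries inhibitory signalling motifs in its tail and recruits the phosphatases PTPN6 and PTPN11. CEACAM3 and CEACAM4 carry activating motifs, and CEACAM3 is a phagocytic receptor of granulocytes. CEACAM5, the carcinoembryonic antigen, CEACAM6 and CEACAM8 are held in the membrane by a lipid anchor. CEACAM8 and CEACAM6 are stored in neutrophil granules and serve as surface markers of granulocytes, whereas CEACAM5 is known mainly from epithelium. The genes arose by duplication, and their copies stand beside each other on chromosome 19 together with pseudogenes such as CEACAMP2 and CEACAMP3 and with the pregnancy-specific glycoprotein (PSG) genes.

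A region with a peak in both ATRA libraries and in neither control library is called ATRA-only here, and the opposite is called control-only. The windows held 11 ATRA-only regions, and 300 bp of 7 of them, cut from GRCh37 (hg19) on the plus strand, are shown because the results turn on them. Of these, 6 were taken in order of score percentile, and that upstream of CEACAM3 was added after its values were seen. Capitals mark matches to the motifs described further on.
CEACAM4 start site, chr19:42133319-42133618: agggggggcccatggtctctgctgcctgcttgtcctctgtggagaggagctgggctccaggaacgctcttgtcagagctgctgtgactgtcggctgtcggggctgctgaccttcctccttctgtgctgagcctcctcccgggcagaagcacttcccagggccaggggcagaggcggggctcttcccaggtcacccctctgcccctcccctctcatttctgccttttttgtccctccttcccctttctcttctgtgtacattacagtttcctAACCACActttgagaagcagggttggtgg
Upstream of CEACAM5, chr19:42210712-42211011: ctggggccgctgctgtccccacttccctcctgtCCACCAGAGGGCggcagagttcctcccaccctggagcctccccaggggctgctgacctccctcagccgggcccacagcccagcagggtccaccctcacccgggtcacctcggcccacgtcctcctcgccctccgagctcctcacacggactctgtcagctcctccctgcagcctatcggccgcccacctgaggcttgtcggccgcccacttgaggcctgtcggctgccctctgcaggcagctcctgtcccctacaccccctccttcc
Upstream of CEACAM3, chr19:42299040-42299339: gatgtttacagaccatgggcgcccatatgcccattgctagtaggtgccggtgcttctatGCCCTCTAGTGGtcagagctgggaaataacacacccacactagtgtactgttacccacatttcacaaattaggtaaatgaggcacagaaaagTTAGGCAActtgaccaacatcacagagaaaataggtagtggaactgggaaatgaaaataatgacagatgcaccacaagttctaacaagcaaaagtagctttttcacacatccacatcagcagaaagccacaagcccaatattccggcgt
Intron of the long CEACAM1 transcript, chr19:43059634-43059933: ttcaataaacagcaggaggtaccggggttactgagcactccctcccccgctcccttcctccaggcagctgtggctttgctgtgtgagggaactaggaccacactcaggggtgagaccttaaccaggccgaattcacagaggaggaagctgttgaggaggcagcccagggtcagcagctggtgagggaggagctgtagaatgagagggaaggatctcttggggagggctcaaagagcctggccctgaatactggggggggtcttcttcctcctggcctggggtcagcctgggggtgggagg
Between CEACAM6 and CEACAM3, chr19:42288640-42288939: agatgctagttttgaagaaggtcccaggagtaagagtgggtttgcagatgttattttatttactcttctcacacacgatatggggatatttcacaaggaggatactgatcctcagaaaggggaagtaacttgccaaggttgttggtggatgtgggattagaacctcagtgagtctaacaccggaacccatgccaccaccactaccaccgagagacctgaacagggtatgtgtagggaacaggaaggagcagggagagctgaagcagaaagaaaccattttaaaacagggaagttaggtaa
Upstream of CEACAM6, chr19:42248762-42249061: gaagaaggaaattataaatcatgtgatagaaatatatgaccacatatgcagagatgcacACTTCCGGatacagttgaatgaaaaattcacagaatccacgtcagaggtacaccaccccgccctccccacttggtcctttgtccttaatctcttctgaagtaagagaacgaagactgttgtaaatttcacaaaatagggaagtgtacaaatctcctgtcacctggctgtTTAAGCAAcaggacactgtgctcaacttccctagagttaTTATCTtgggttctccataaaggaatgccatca
CEACAM21 intron, chr19:42076992-42077291: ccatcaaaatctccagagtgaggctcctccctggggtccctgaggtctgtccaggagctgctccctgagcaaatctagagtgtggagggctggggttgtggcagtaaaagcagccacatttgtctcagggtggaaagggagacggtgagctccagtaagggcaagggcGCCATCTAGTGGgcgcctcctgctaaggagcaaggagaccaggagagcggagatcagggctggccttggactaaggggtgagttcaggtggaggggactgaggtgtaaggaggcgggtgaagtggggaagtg

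The whole lists differed in length. ATRA replicate 1 had 43494 peaks and ATRA replicate 2 had 63541, against 42081 and 45903 in control replicates 1 and 2. ATRA replicate 2 stood apart, with a median peak width of 416 bp against 291 to 328 bp in the other libraries. Chromosome 19 as a whole had 1538 and 1841 peaks in the ATRA libraries and 1018 and 967 in the control libraries. The number of peaks was thus 1.22 times as high in the ATRA-treated cells over the whole lists and 1.70 times as high on chromosome 19. The lists hold no read counts, so depth was unknown. Among 8 myeloid marker genes, 3 to 5 had a promoter peak in each library, and the promoters of ELANE and AZU1, granule genes of promyelocytes, had none. Erythroid markers had 0 promoter peaks of 4 in every library, lymphoid markers 0 or 1 of 4, and epithelial markers 0 or 1 of 4, where the single gene was KRT8.

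More peaks were found around the CEACAM genes in the ATRA-treated cells. Together the windows held 21 peaks in ATRA replicate 1, 28 in ATRA replicate 2, 8 in control replicate 1 and 11 in control replicate 2. The ATRA libraries were both above the control libraries, and the longer ATRA list had more peaks here than the shorter one. The ATRA-treated cells averaged 24.5 ± 4.95 peaks (SD, n = 2) against 9.5 ± 2.12 in the control cells (SD, n = 2), a difference of 15 peaks and a ratio of 2.58 (two-sided exact permutation p = 0.333, n = 2 per group). This is the smallest p that 2 libraries against 2 can give, so no comparison of the groups here could pass a threshold of 0.05. Peaks covered 6665 and 11334 bp in the ATRA libraries and 2606 and 2875 bp in the control libraries, a ratio of 3.28 (two-sided exact permutation p = 0.333). The ratio of covered bases was 2.25 on chromosome 19 and 1.47 over the whole lists. With ATRA replicate 1 alone, the ratios to the control mean were 2.21 for peaks and 2.43 for covered bases in the windows, against 1.55 and 1.89 on chromosome 19. When each list kept its 967 highest-scoring peaks of chromosome 19, the length of the shortest, the windows held 8 and 11 peaks in the ATRA libraries and 8 and 11 in the control libraries. The difference in peak number was then 0, and that in covered bases 1798 bp. This setting removed peaks below scores of 94.1 and 114 from the ATRA lists and below 55.0 and 50.0 from the control lists. With 1 minimum score of 100 for all lists, the windows held 8 and 13 peaks in the ATRA libraries and 3 and 2 in the control libraries, a difference of 8 peaks and 3882 bp.

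**Figure D1:**
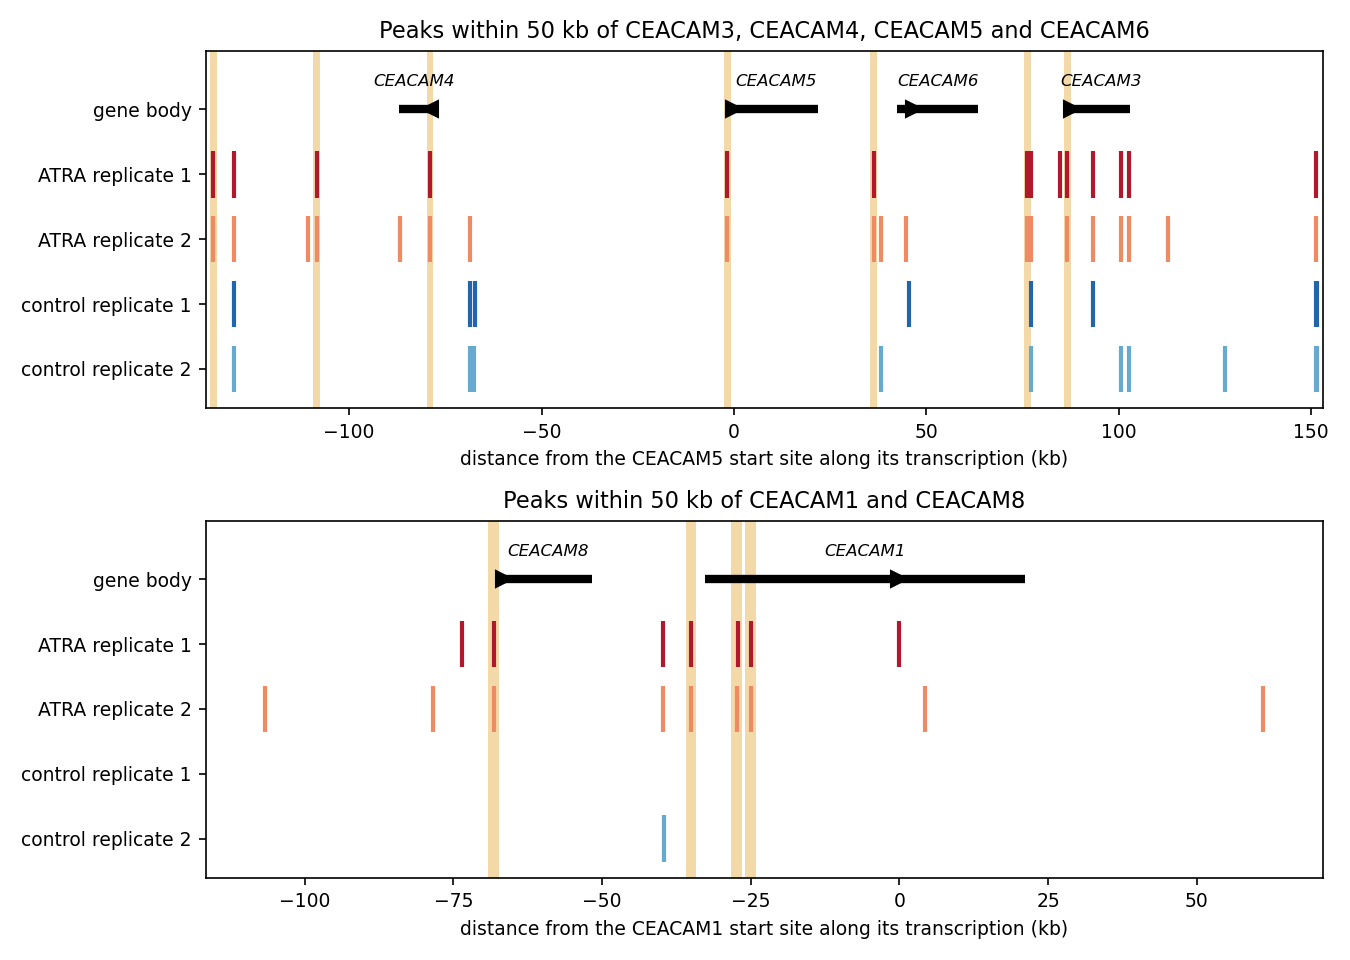
Position of every ATAC-seq peak in both windows, with 1 row per library and 1 vertical line per peak, as distance in kb from the CEACAM5 start site (top) and the CEACAM1 start site (bottom). Black bars are gene bodies with an arrowhead at the start site that points along transcription, and shaded bands, drawn wider than the peaks, are the 11 ATRA-only regions. The bottom window shows 7 and 9 ATRA peaks against 0 and 1 control peaks.

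The libraries that shared each region were then counted. Of the 35 regions, 11 were ATRA-only (31.4%), against 8.94% of all regions of the genome and 17.8% of those on chromosome 19. No region was control-only, where the share was 3.37% in the genome and 0.792% on chromosome 19. The wider class of regions with a peak in both ATRA libraries and not in both control libraries held 15 of the 35, against 17.9% in the genome and 31.5% on chromosome 19. The opposite class held 1 region, against 9.53% in the genome, and its share on chromosome 19 was not counted. A peak was present in all 4 libraries at 3 regions, against 30.3% in the genome and 29.0% on chromosome 19. A single library accounted for 15 regions, against 33.4% and 32.0%. Of these 15, ATRA replicate 2 alone gave 8, and it alone gave 19.1% of all regions. After the lists were reduced to equal numbers of chromosome 19 peaks, 3 of 18 regions were ATRA-only, compared with 5.94% of chromosome 19 regions under that setting.

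**Figure D2:**
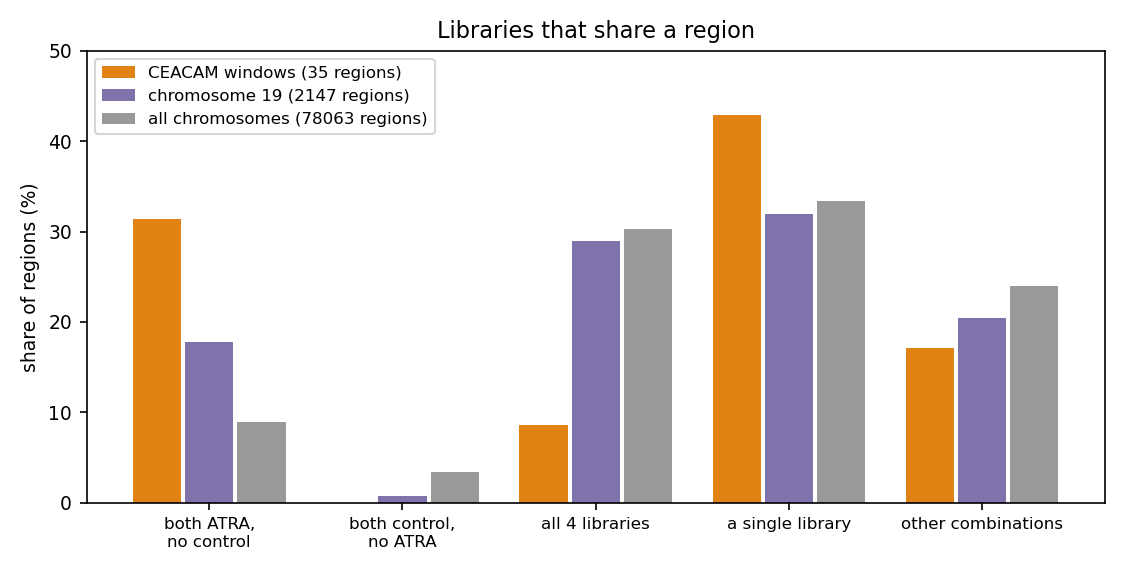
Share of regions (%) by the libraries that had a peak there, for the CEACAM windows, chromosome 19 and all chromosomes. Each bar is a share of the number of regions in the legend. The CEACAM windows have the highest share of regions shared by both ATRA libraries alone (31.4%) and the lowest share of regions in all 4 libraries (8.57%).

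CEACAM1 and CEACAM8, the inhibitory receptor and the granulocyte marker, had almost no control peak. Their window held 7 and 9 peaks in the ATRA libraries and 0 and 1 in the control libraries (two-sided exact permutation p = 0.333). Its 11 regions contained 4 ATRA-only regions, all of which lay within 50 kb of both genes. The single control peak, of control replicate 2, was at chr19:43072095-43072544, where both ATRA libraries also had a peak. Its score percentile, the rank of a peak's score within its own list, was 70.3 in control replicate 2 and 7.57 and 45.2 in ATRA replicates 1 and 2.

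CEACAM1 is transcribed on the minus strand from a main start site at position 43032633, and an annotated longer transcript starts at 43065386. The main start site had a peak of 219 bp in ATRA replicate 1, at percentile 10.4, and none in the other libraries. The region with the highest rank of the 11 lay 27.4 kb upstream of that start, in an intron of the longer transcript, at chr19:43059588-43060416. It had percentiles of 71.0 and 77.7 and widths of 358 and 829 bp in ATRA replicates 1 and 2. A second ATRA-only region stood next to it, 25.03 kb upstream of the main start at chr19:43057297-43058033. Its percentiles were 5.52 and 41.5, so the ATRA libraries differed widely there. Another, chr19:43067476-43067882, lay beyond the start of the longer transcript, with percentiles of 28.9 and 22.3.

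CEACAM8 is also on the minus strand and starts at 43099076. Its promoter, taken from 1 kb before to 100 bp after a start site, had no peak in any library. An ATRA-only region was found 1.78 kb upstream, at chr19:43100666-43101040. Its percentiles were low in both ATRA libraries, at 21.0 and 13.3, with widths of 233 and 375 bp. Farther upstream, single peaks were present in ATRA replicate 1 at 7.06 kb and in ATRA replicate 2 at 11.99 and 40.2 kb.

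CEACAM4, a receptor with an activating motif, was the only one of the 6 genes with an ATRA-only peak at its start site. The region chr19:42133308-42133798 covers the start at 42133442 on the minus strand. Its peak was 284 bp wide at percentile 58.6 in ATRA replicate 1 and 491 bp wide at percentile 63.7 in ATRA replicate 2. This region kept the pattern with equal numbers of chromosome 19 peaks. Within 50 kb, CEACAM4 had 4 and 7 peaks in the ATRA libraries and 3 in each control library. In each control library, 2 of the 3 lay 10.5 to 11.9 kb upstream of the gene and the other was at the CEACAM21 promoter. At chr19:42143762-42144182 both control libraries had a peak, at percentiles 38.6 and 27.1, and ATRA replicate 2 had one at 53.7. Sequence like that of this region aligned at 858 other places in the surrounding CEACAM and PSG cluster, so it lies in a common repeat.

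CEACAM5 had the fewest regions, 5 within 50 kb of the gene body. ATRA replicates 1 and 2 had 2 and 4 peaks there, and the control libraries had 1 each. Its strongest region lay 1.74 kb upstream of the start at 42212545, at chr19:42210489-42211126, and was ATRA-only. The percentiles were 65.2 and 70.7 and the widths 443 and 638 bp. This region also overlaps the first bases of an annotated CEACAM7 transcript with no defined coding sequence, which starts at 42210895 on the other strand, so the position alone does not assign it to either gene. The promoter of CEACAM5 itself had no peak in any library. The region kept the pattern with equal numbers of chromosome 19 peaks, as did the region 27.4 kb upstream of CEACAM1 and the CEACAM4 start site, and no other region of the windows had it under that setting.

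CEACAM6, a granule and surface protein of neutrophils, had 9 and 11 peaks within 50 kb in the ATRA libraries and 3 and 4 in the control libraries. The promoter had no peak. Of its 4 ATRA-only regions, the nearest on the upstream side was chr19:42248734-42249132, 10.5 kb before the start at 42259438, with percentiles of 27.2 and 31.6. The other 3 lay close to CEACAM5 or CEACAM3, because the windows of the genes overlap. Closer to the start, the libraries differed without a pattern. A peak 2.16 kb upstream was found in ATRA replicate 2 alone, and a peak 1.39 kb upstream in control replicate 1 alone, at percentile 33.5. Both lie in an intron of a longer annotated CEACAM6 transcript.

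CEACAM3, the phagocytic receptor, had 8 and 10 peaks within 50 kb in the ATRA libraries and 5 and 7 in the control libraries, the smallest ratio of the 6 genes (1.5). Its start site at 42300519 had no peak. An ATRA-only region was found 1.33 kb upstream, at chr19:42299047-42299334, with percentiles of 6.22 and 36.5. In ATRA replicate 1 this was among the weakest peaks of the list. The next ATRA-only region, chr19:42288462-42289068, lay 11.8 kb upstream with percentiles of 30.5 and 51.3. Inside the gene, the regions 12.7 and 14.7 kb from the start had percentiles of 58.4 and 54.7 in ATRA replicate 1 and 57.4 and 61.5 in ATRA replicate 2. Control replicate 2 had weaker peaks there, at 3.66 and 21.5, and control replicate 1 had none. The opposite order was seen for control replicate 1 alone 5.32 kb inside the gene, where its peak ranked at 51.6 and those of the ATRA libraries at 11.7 and 22.5. Control replicate 2 had no peak there.

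**Figure D3:**
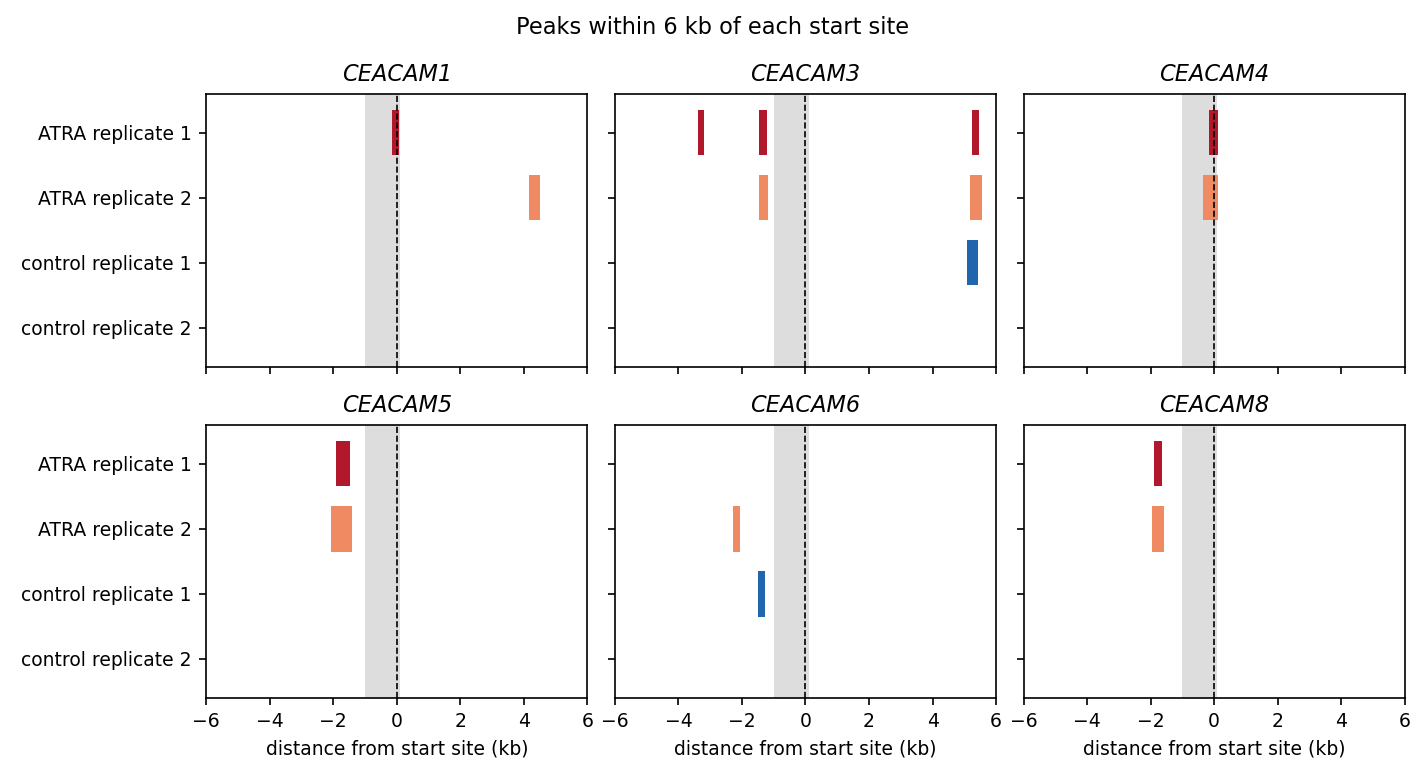
Peaks within 6 kb of the start site of each gene, drawn to scale along the direction of transcription, with 1 row per library; the dashed line is the start site and the grey band runs from 1 kb upstream to 100 bp downstream. CEACAM4 has a peak of both ATRA libraries at its start, whereas CEACAM3, CEACAM5 and CEACAM8 have one 1.33 to 1.78 kb upstream.

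Of the 11 ATRA-only regions, 5 lay 1 to 2.5 kb upstream of the start of a CEACAM gene or pseudogene, and so did 3 of the 24 other regions. This distance was chosen after the positions were seen, and the share of all regions at such a distance from a start was not counted. The 5 were upstream of CEACAM3, CEACAM5 and CEACAM8 and of the pseudogenes CEACAMP3, at 1.97 kb (chr19:42103985-42104247), and CEACAMP2, at 1.78 kb (chr19:43067476-43067882). By sequence, those of CEACAM3, CEACAMP3 and CEACAMP2 are copies of each other, and so are those of CEACAM5 and CEACAM8. The 5 are hence not separate observations. The other 3 were the 2 regions upstream of CEACAM6 and 1 peak of ATRA replicate 2 that lay 2.13 kb upstream of CEACAMP1.

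The ATRA-only regions ranked low among peaks. The mean percentile of the ATRA libraries had a median of 29.4 over the 11 regions and of 37.5 over the 6976 ATRA-only regions of the genome. It ranged from 17.2 upstream of CEACAM8 to 74.3 upstream of CEACAM1. Only 4 regions, those at or upstream of CEACAM4, CEACAM5, CEACAM1 (at 27.4 kb) and in the CEACAM21 intron, were above a percentile of 40 in both ATRA libraries. With a minimum score of 100 in every list, 6 regions of the windows were ATRA-only, of 14, compared with 22.0% of chromosome 19 regions under that setting. Of these 6, 3 were ATRA-only in the full lists, and the other 3, the CEACAM21 promoter and the regions 12.7 and 14.7 kb inside CEACAM3, had lost control peaks below that score.

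**Figure D4:**
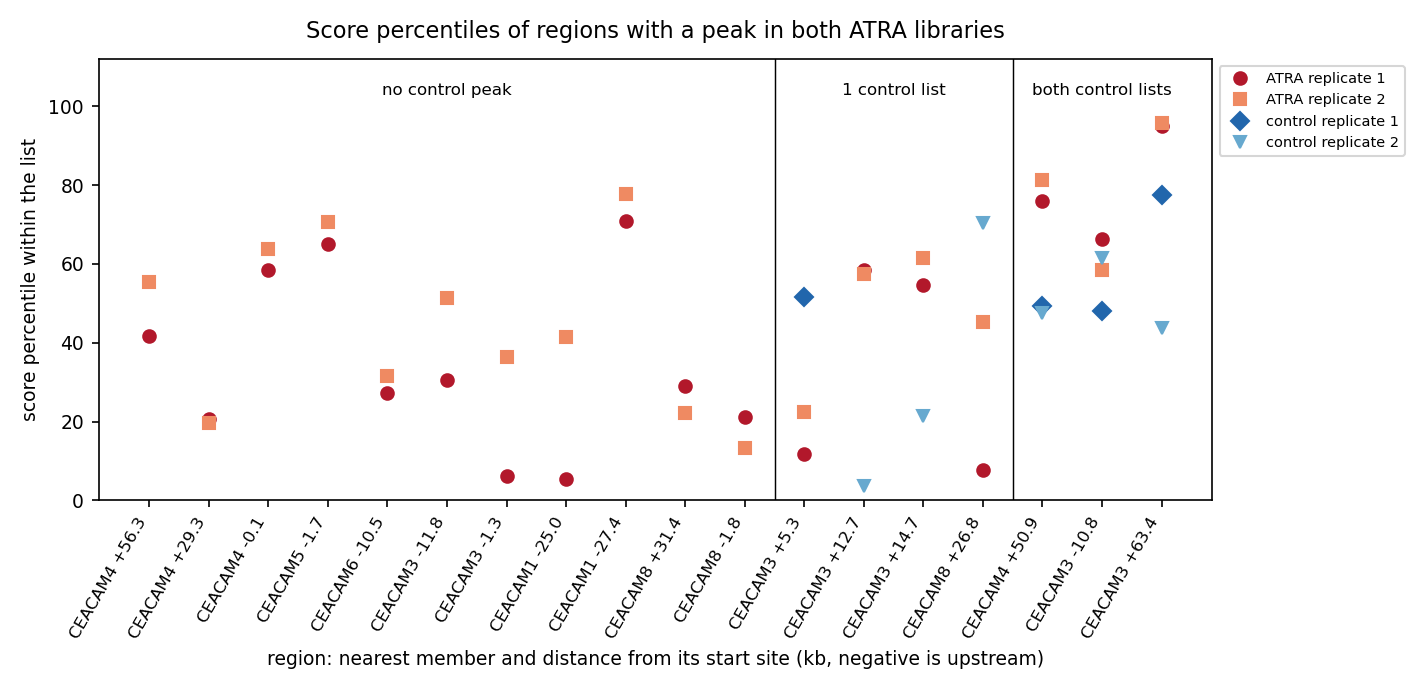
Score percentile within its own list of each peak in the regions with a peak in both ATRA libraries, grouped by how many control lists also had a peak. Each point is 1 library, and regions are named by the nearest of the 6 genes and the distance in kb from its start site. The ATRA-only regions upstream of CEACAM4, CEACAM5 and CEACAM1 (27.4 kb) stand above 55 in both ATRA libraries, whereas others lie as low as 5.52.

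Only 3 regions had a peak in all 4 libraries, and 2 of these were promoters of other genes. The CEACAM21 promoter, chr19:42082327-42082715, had percentiles of 76.0 and 81.3 in the ATRA libraries and 49.3 and 47.5 in the control libraries. The promoter of the ribosomal protein gene RPS19, chr19:42363418-42364345, had percentiles of 94.9 and 95.7 against 77.5 and 43.8. In both, the ATRA libraries were above the control libraries without overlap. The remaining region, 10.8 kb upstream of CEACAM3 at chr19:42289533-42289927, had 66.2 and 58.4 against 48.0 and 61.5, and the groups overlapped. Thus 2 of 3 had both ATRA percentiles above both control percentiles, against 29.2% of regions in all 4 libraries in the genome and 76.0% of those on chromosome 19. None of the 3 had the opposite order, which 12.8% had in the genome. The mean over the 3 regions was 78.8 ± 0.42 and 54.6 ± 5.15 (SD, n = 2), a difference of 24.2 percentile points (two-sided exact permutation p = 0.333). Without control replicate 2 the difference was 6.79 over 4 shared regions. The mean width was 527 ± 38.9 bp and 386 ± 7.31 bp (SD, n = 2), a difference of 142 bp (two-sided exact permutation p = 0.333). These widths are of the widest peak of a library in a region. By that measure, both ATRA widths were above both control widths at 2 of 3 regions, against 37.5% in the genome and 78.3% on chromosome 19. At the RPS19 promoter the control libraries had split peaks, of 495 and 323 bp and of 515 and 179 bp. The ATRA libraries had single peaks there, of 927 and 797 bp. With widths summed per library, the groups overlapped at this promoter, and the mean difference over the 3 regions was 58.0 bp.

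The regions were next compared with each other by sequence. Of the 35 regions, 31 had an alignment of at least 100 bp elsewhere in the CEACAM and PSG cluster, chr19:42000001-43800000. All 11 ATRA-only regions were among them. The highest identity of each region, over alignments of any length including shorter ones, had a median of 85.7%. For all 11, an aligned copy also had a peak, as for 15 of the 24 other regions. For 7 of the 11 and 10 of the 24, a copy was itself ATRA-only. How reads that fit several places were treated was not stated, and its part in these peaks was not tested.

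One family of copies lay upstream of CEACAM3, CEACAM6 and the pseudogenes CEACAMP3 and CEACAMP2. Stretches of these 4 are shown because 3 are ATRA-only and the CEACAM6 copy had a control peak, and capitals mark a match to the CTCF consensus.
Upstream of CEACAM3, chr19:42299075-42299134, plus strand: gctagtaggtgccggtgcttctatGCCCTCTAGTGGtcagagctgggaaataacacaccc
Upstream of CEACAM6, chr19:42258014-42258073, plus strand: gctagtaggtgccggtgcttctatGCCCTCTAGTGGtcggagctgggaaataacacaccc
Upstream of CEACAMP3, chr19:42104082-42104140, plus strand: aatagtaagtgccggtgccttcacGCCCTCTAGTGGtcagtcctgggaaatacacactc
Upstream of CEACAMP2, chr19:43067659-43067717, minus strand: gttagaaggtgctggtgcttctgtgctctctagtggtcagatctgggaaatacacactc
The CEACAM6 copy was identical to that of CEACAM3 at 59 of 60 positions, yet its peak was found only in control replicate 1. The CEACAMP3 and CEACAMP2 copies were identical at 49 and 52 positions, and both were ATRA-only. The CEACAMP2 copy lacked the CTCF match. Shorter alignments of this family reached a further ATRA-only region with a CTCF match outside the windows, in the CXCL17 neighbourhood at chr19:42942582-42942989, and another copy, chr19:42148263-42148502, had no peak in any library.

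Another family had ATRA-only regions upstream of CEACAM5, CEACAM8 and PSG9, and stretches of the CEACAM5 and PSG9 copies are shown for the match that they share.
Upstream of CEACAM5, chr19:42210721-42210780, plus strand: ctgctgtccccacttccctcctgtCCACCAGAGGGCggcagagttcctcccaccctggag
Upstream of PSG9, chr19:43775402-43775462, minus strand: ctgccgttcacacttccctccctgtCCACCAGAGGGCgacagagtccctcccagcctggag
The PSG9 stretch was identical to that of CEACAM5 at 54 positions. A further copy upstream of PSG2 had a peak in ATRA replicate 2 and no CTCF match. Most copies had no peak in any library, since only 3 of the 16 alignments of the CEACAM5 region and 3 of the 22 of the CEACAM8 region overlapped a peak, and those without included copies about 1.7 kb upstream of PSG3, PSG5 and PSG8.

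A different family paired the introns and ends of genes. The ATRA-only region 25.03 kb upstream of CEACAM1 aligned over 742 bp with the region 14.7 kb inside CEACAM3 at 86.0% identity, and with a region at the end of CEACAM4 at 87.9%. The neighbouring region 27.4 kb upstream of CEACAM1 aligned with the region 12.7 kb inside CEACAM3 over 834 bp at 79.3%. The CEACAM3 copies had peaks in both ATRA libraries and in control replicate 2, whereas the CEACAM1 copies had no control peak. The start sites of CEACAM4, CEACAM21 and CEACAM1 were also copies of each other, and their peaks were found in both ATRA libraries, in all 4 libraries and in ATRA replicate 1, respectively. Most copies had no peak, since only 2 of the 24 alignments of the CEACAM21 region and 2 of the 25 of the CEACAM4 region overlapped one. Those without included the start sites of CEACAM3, CEACAM6, CEACAM7 and CEACAM8. Among the promoter sequences of the 6 genes in RefSeq (GRCh38, all 6 matched), pairwise identity ran from 66.7% between CEACAM5 and CEACAM8 to 83.1% between CEACAM3 and CEACAM6.

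Motif matches were counted on both strands in 300 bp about the centre of the stretch that the peaks of a region shared. The CTCF consensus, the site of a factor that organises chromatin loops, was added after the sequences were read. It matched in 8 of the 35 regions (22.9%) and in 5 of the 11 ATRA-only regions (45.5%). The share was 6.26% of all regions, 7.64% of those on chromosome 19, 3.37% of all ATRA-only regions and 12.6% of ATRA-only regions on chromosome 19. The 5 were the regions upstream of CEACAM3, CEACAM5, CEACAM8 and CEACAMP3 and that in the CEACAM21 intron. Of these, 4 belong to the families of copies described above. The CEACAM21 intron region aligned with chr19:43110928-43111206 (76.1% identity) and chr19:43139192-43139435 (78.5%), which also had a CTCF match. The matches are hence not separate observations. The CEBP consensus (TTGCNNAA), read by factors of granulocyte maturation, matched in 10 of 35 regions, against 17.3% of all regions and 10.8% of those on chromosome 19. The match counted for chr19:42144990-42145140 lies in the neighbouring region chr19:42145191-42145476 and was counted for both, because their 300 bp overlap. CEBP matched in 3 of 11 ATRA-only regions, against 20.8% of all ATRA-only regions and 12.3% of ATRA-only regions on chromosome 19. The PU.1 consensus (GAGGAAGT) matched in 3 of 35 and in 0 of 11, against 10.5% of all regions, 15.4% of all ATRA-only regions and 7.85% of those on chromosome 19. RUNX (AACCACA) matched in 2 of 11, against 14.4% of all ATRA-only regions and 8.12% of those on chromosome 19. The GATA consensus, read as AGATAA and also as TGATAA, matched in 1 of 11, against 22.3% and 14.9% in the same sets, and ETS (CCGGAAGT) in 1 of 11, against 0.717% and 3.14%. IRF (GAAANNGAA) matched in 0 of 11, against 14.5% and 7.85%. AP-1, read as TGAGTCA and also as TGACTCA, and the retinoic acid receptor repeat DR5 matched in 0 of 35, against 7.78% and 0.133% of all regions. The GATA and CEBP letters do not overlap in the CEACAM6 sequence shown.

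As deposited, all 6 genes had at least 2 ATRA-only regions within 50 kb of the gene body and none had a control-only region. CEACAM1, CEACAM6 and CEACAM8 had 4 each, CEACAM4 had 3, and CEACAM5 and CEACAM3 had 2 each, with regions near neighbouring genes counted for both. These counts moved with the setting, and with equal numbers of chromosome 19 peaks CEACAM3 had 0 and the other 5 genes had 1 each. At least 1 ATRA-only region was present for 40.9% of 20155 protein-coding genes and for 57.3% of those on chromosome 19. For 14.0% of all coding genes at least 2 were present, and this share was not counted on chromosome 19. At least 4 were present for 1.32% of all coding genes and 4.32% of those on chromosome 19. The 6 genes had a median of 9.5 regions of any kind within reach, against 6 for all coding genes. A control-only region was present for 16.5% of all coding genes. Control-only regions were rarer on chromosome 19, at 0.792% of regions against 3.37% in the genome, so the share of all coding genes is not matched to this chromosome.

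Among 13 genes that carry the signals of CEACAM receptors, 11 had an ATRA-only region and 4 had a control-only region, LYN, NCK2, RAC2 and VAV1. Of all coding genes, 40.9% had an ATRA-only region and 16.5% a control-only region. However, the 13 genes had a median of 13 regions of any kind within reach, against 6 for all coding genes. SYK, the kinase bound by activating motifs, had 4 ATRA-only regions and no control-only region. The phosphatase gene PTPN6 had 2. SRC and PIK3R1, which encodes the regulatory subunit of a lipid kinase, had none of either kind. Longer genes reach more regions, so counts are not comparable between genes of different length.

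The genes most like the windows in bases covered per kb in the 4 libraries lay on several chromosomes. The CEACAM1 and CEACAM8 window had 9.86 and 20.2 bp per kb in the ATRA libraries and 0 and 2.28 bp per kb in the control libraries. The nearest genes by Euclidean distance over the 4 libraries were POLR2A, DHRS3 and SEMA6B, at distances of 1.40, 1.73 and 2.22. The window of the other 4 genes had 16.6 and 26.0 against 8.98 and 8.43 bp per kb, and GABARAPL1, GGT1 and SEPTIN4 were nearest, at 1.18, 1.37 and 1.54.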

How the data were processed

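ATAC-seq was performed on HL-60 cells with ATRA (1 µM, 4 days) or ethanol, with 2 replicates per group that the study's methods call independent. Per the labels, the methods and the submitters' processing notes, the authors removed adapters with cutadapt, aligned reads to hg19 with Bowtie2 and called peaks with MACS2 for each library. A shift to the Tn5 cut site and the treatment of duplicates, blacklisted regions and reads with several alignments are not given in the sources used here. The deposited lists give chromosome, start, end, name and score per peak. The deposited score runs from 50.0 to a ceiling of 3100 on an unstated scale. It was used here as a rank within each list, except in the setting with a minimum score of 100. That setting compares scores between lists, and whether they are comparable is not known.

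Peaks sharing 1 bp were merged into regions and compared by library. Named genes were the 6 genes, related and signalling genes, coding genes with a region in the windows and the 3 genes most like each window. These members and lists were chosen with earlier results of these data known. Annotation was GENCODE release 44 lifted to GRCh37. Differences were tested by the exact permutation test over 6 assignments of the 4 libraries. Alternatives covered peak overlap and width, score, list length, flank, single libraries and the replicate block. Percentile differences between the 2 ATRA replicates correlated at 0.21 with those between the 2 control replicates, over 23653 regions. This is the 1 comparison that 2 pairs allow. Copies were aligned with BLAST 2.17.0, and sequences read with samtools 1.23.1. Python 3.11.15, numpy 2.4.6, pandas 2.3.3 and matplotlib 3.10.9 were used. The code was checked on simulated lists. Some list members and sequences are not reported here.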

Additional observations from a re-analysis of the deposited data

How the results depend on the processing

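The ATRA-only count of 11 was 6 with a minimum score of 100, 3 with gene bodies only and 3 with equal numbers of chromosome 19 peaks, an alternative chosen after seeing the data that also brought the difference in peak number from 15 to 0 and that in covered bases from 6259 to 1798 bp, with a percentile difference of 23.9. With the minimum score the difference was 8 peaks and 3882 bp. Counts of ATRA-only regions per gene moved too. Without ATRA replicate 1, CEACAM1 had 7, CEACAM4 had 5 and CEACAM3 had 4, and without control replicate 2 CEACAM3 also had 4. With the minimum score CEACAM1, CEACAM5 and CEACAM8 had 1 each. With gene bodies only, CEACAM1 had 2, CEACAM4 had 1 and the others 0. With peaks set to 200 bp, 1 control-only region appeared. Leaving out 1 library at a time loosens the rule, since fewer libraries must agree, so higher counts here and per gene follow from the rule itself. This gave 12 to 19 ATRA-only regions, the most without ATRA replicate 1, and 0 to 2 control-only regions. The difference in peak number then ran from 11.5 to 18.5, in covered bases from 3924 to 8594, in percentile from 6.79 to 24.5, the lowest without control replicate 2, and in width from 88.5 to 169 bp, the lowest also without control replicate 2. Summed widths lowered the width difference from 142 to 58.0 bp. With the replicate number as a block, the differences were 15, 6259, 24.2 and 142 (exact permutation p = 0.50, the smallest that 2 pairs allow), so it changed no call. No region was shared by all 4 libraries with gene bodies only, with a flank of 10 kb or with the minimum score, so the percentile and width were not computed there. With 2 libraries per group and unknown depth, a missing peak does not show closed chromatin.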

Other observations

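Of the other CEACAM genes, all 6 had an ATRA-only region within 50 kb of the gene body and none had a control-only region. An ATRA-only region was present for 40.9% of all coding genes and 57.3% of those on chromosome 19. The share with a control-only region was 16.5% of all coding genes. Control-only regions were 0.792% of regions on chromosome 19, against 3.37% in the genome. CEACAM18 had 5, more than any of the 6 genes described above, and CEACAM19, CEACAM21 and CEACAM7 had 3 each, CEACAM16 had 2 and CEACAM20 had 1. CEACAM7 and CEACAM21 reach into the windows described above and share regions with them. CEACAM19 had no control replicate 1 peak in reach, with 12.5 and 23.8 bp covered per kb in the ATRA libraries and 0 and 3.38 bp per kb in the control libraries. Of 10 PSG genes, glycoproteins of the placenta, 3 had an ATRA-only region, PSG4, PSG5 and PSG9, and none had a control-only region. The 30.0% with an ATRA-only region was below the share of coding genes in the genome and on chromosome 19. The PSG genes had no peak in either control library within reach of the gene bodies. The ATRA coverage of these genes was also sparse, at 0 to 4.51 bp per kb in ATRA replicate 1 and 0 to 5.24 bp per kb in ATRA replicate 2, and PSG11 had no peak in any library.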
